A study of Mus musculus with 4 samples.

Results

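The zinc and copper genes of 4 mouse fibroblast lines are described here: the Slc30a and Slc39a zinc carriers, the metallothioneins, the metal-sensing transcription factor Mtf1, the copper carriers Slc31a1, Slc31a2, Atp7a and Atp7b, and the copper chaperones Atox1 and Ccs. Members were all probe sets that the platform annotation assigns to 1 such gene, which gave 63 probe sets of 35 genes, out of 45037 non-control probe sets and 18193 genes. The melanotransferrin (MTf) clones MTf 4 and MTf 6 carry the expression vector pCI-neo with the mouse melanotransferrin cDNA. They were set against 2 lines with pCI-neo alone, vector 1 and vector 2. All 4 are stably transfected LMTK- cells, a mouse fibroblast line, so the controls carry the vector as well. Each line was measured once, on 1 Affymetrix mouse array, from total RNA. Each MTf line is 1 numbered clone. Whether vector 1 and vector 2 are clones too is not given, nor whether the cultures were independent, so a p-value here speaks only to the scatter among 4 arrays.

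Melanotransferrin is an iron-binding relative of transferrin held at the cell surface. Zinc enters the cytosol through the Slc39a (ZIP) carriers and leaves it, to the outside or into vesicles and organelles, through the Slc30a (ZnT) carriers. Metallothioneins are small cysteine-rich proteins that bind zinc and copper. When zinc rises, Mtf1 binds metal response elements and raises transcription of Mt1, Mt2 and the exporter Slc30a1. Copper enters through Slc31a1, is passed by Atox1 to the pumps Atp7a and Atp7b and by Ccs to superoxide dismutase 1.

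The promoters of Mt1, Mt2 and Slc30a1 are shown because these 3 genes are textbook targets of Mtf1 and their signals are the first to be read for a zinc response. Each sequence is RefSeq's on build GRCm38.p6, runs 5′ to 3′ over 300 bases, 250 before and 50 after the annotated start, and lies on the plus strand. Capitals mark the core of the metal response element, searched as TGCACNC and TGCGCNC on both strands.
Mt1, chr8:94178839-94179138: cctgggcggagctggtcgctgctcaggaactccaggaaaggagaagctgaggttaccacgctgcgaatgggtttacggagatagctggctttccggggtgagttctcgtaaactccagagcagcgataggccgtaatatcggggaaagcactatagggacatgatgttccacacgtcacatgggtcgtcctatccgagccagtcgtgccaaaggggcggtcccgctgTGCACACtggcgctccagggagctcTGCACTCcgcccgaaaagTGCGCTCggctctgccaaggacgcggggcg
Mt2, chr8:94172368-94172667: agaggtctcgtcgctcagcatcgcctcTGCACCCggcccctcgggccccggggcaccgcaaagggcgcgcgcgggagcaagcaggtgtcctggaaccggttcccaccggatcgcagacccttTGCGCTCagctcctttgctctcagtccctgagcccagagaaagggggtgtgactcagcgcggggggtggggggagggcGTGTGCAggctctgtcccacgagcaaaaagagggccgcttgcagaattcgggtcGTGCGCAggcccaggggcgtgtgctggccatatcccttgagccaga
Slc30a1, chr1:191906531-191906830: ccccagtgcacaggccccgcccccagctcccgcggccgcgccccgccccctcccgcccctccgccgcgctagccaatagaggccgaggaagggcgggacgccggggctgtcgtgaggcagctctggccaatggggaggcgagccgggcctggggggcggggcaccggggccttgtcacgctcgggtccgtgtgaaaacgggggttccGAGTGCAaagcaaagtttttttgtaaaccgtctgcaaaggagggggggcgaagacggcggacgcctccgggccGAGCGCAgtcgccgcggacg
The core occurred 3 times in the Mt1 window, 4 times in the Mt2 window and 2 times in the Slc30a1 window, and no matches overlapped. Those of Mt1 began at bases -23, 3 and 21 from the annotated start and lay on the plus strand. Both of Slc30a1, at -43 and 31, lay on the minus strand. Whether transcription begins at the annotated starts in these lines was not tested, and elements outside the windows were not searched. Of 32851 promoter windows of the same length, 25.7% held at least 1 match, 1.97% held at least as many as Mt1, 0.517% at least as many as Mt2 and 7.11% at least as many as Slc30a1. Among 35 windows of 30 member genes, 19 held a match (54.3%). A match is a description of these letters and not a measured binding site.

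Values are scaled array signals on a linear scale, and differences are of log2(signal + 32), MTf minus vector, from limma. The arrays had medians between 209.3 and 215. Meltf, the transfected gene, measured 1519 in MTf 4 and 1885 in MTf 6, against 265 in vector 1 and 274 in vector 2, a log2 difference of 2.52 with a limma adjusted p = 0.0903. LMTK- is a fibroblast line, and 7 of 10 fibroblast marker genes passed the filter on dim probe sets, among them vimentin and Col1a2, while Dcn, Lum and Thy1 did not. Of 21 marker genes of other cell types looked for, 6 passed: Krt5, Cd68, Adgre1, Kdr, Des and Fabp4. Fabp4, an adipocyte marker, was bright, between 8333 and 12040 in the 4 lines by its brightest probe set. Des lay between 582.5 and 908 by its tested probe set. The tested probe sets of Krt5, Cd68, Adgre1 and Kdr were at most 373 in every line. Summed epithelial marker signal was 902 in MTf 4 and 956 in MTf 6, against 514 in vector 1 and 518 in vector 2. The sums of leukocyte markers ran from 498 to 849 in the clones, against 710 to 878 in the vector lines. Epcam lay at 13.9 to 21.9 in all lines by 1 probe set and by the other at 326 in MTf 4 and 405 in MTf 6, against 131 in vector 1 and 40.1 in vector 2. Pecam1 lay at 21.0 to 34.2. The part of these signals in the results was not tested. In bulk RNA, fewer cells with a transcript and less of it per cell cannot be told apart.

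No zinc or copper probe set passed the test between the clones and the vector lines. Of the 63 probe sets, 38 of 25 genes had a mean above the filter, a signal of about 196, and were tested. By limma with Benjamini-Hochberg adjustment, 0 of these 38 passed 0.05, where 0.00444% of all 22519 tested probe sets did. At an unadjusted 0.05 the count was also 0, against 1.90% of all tested probe sets (1.04% higher and 0.861% lower). The smallest unadjusted p among the 38 was 0.0907, and every adjusted p was 1.00. All 38 intervals held 0, and together they reached from -1.10 to 1.17.
Counted by gene, with the brightest tested probe set of each, 11 were higher and 14 lower in the clones. Over probe sets, 18 of 38 were above 0 (47.4%), against 48.7% of all tested. The median log2 difference of the genes was -0.02, against -0.0050 over all 10682 genes tested, and the median absolute difference was 0.099, against 0.134. The groups did not overlap for 9 of 38 probe sets (23.7%), against 25.8% of all tested. Both clones lay above both vector lines for 6 probe sets (15.8%), against a background of 12.2%, and both lay below for 3 (7.89%), against 13.6%. These shares are near the background and are no result about the members.

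**Figure D1:**
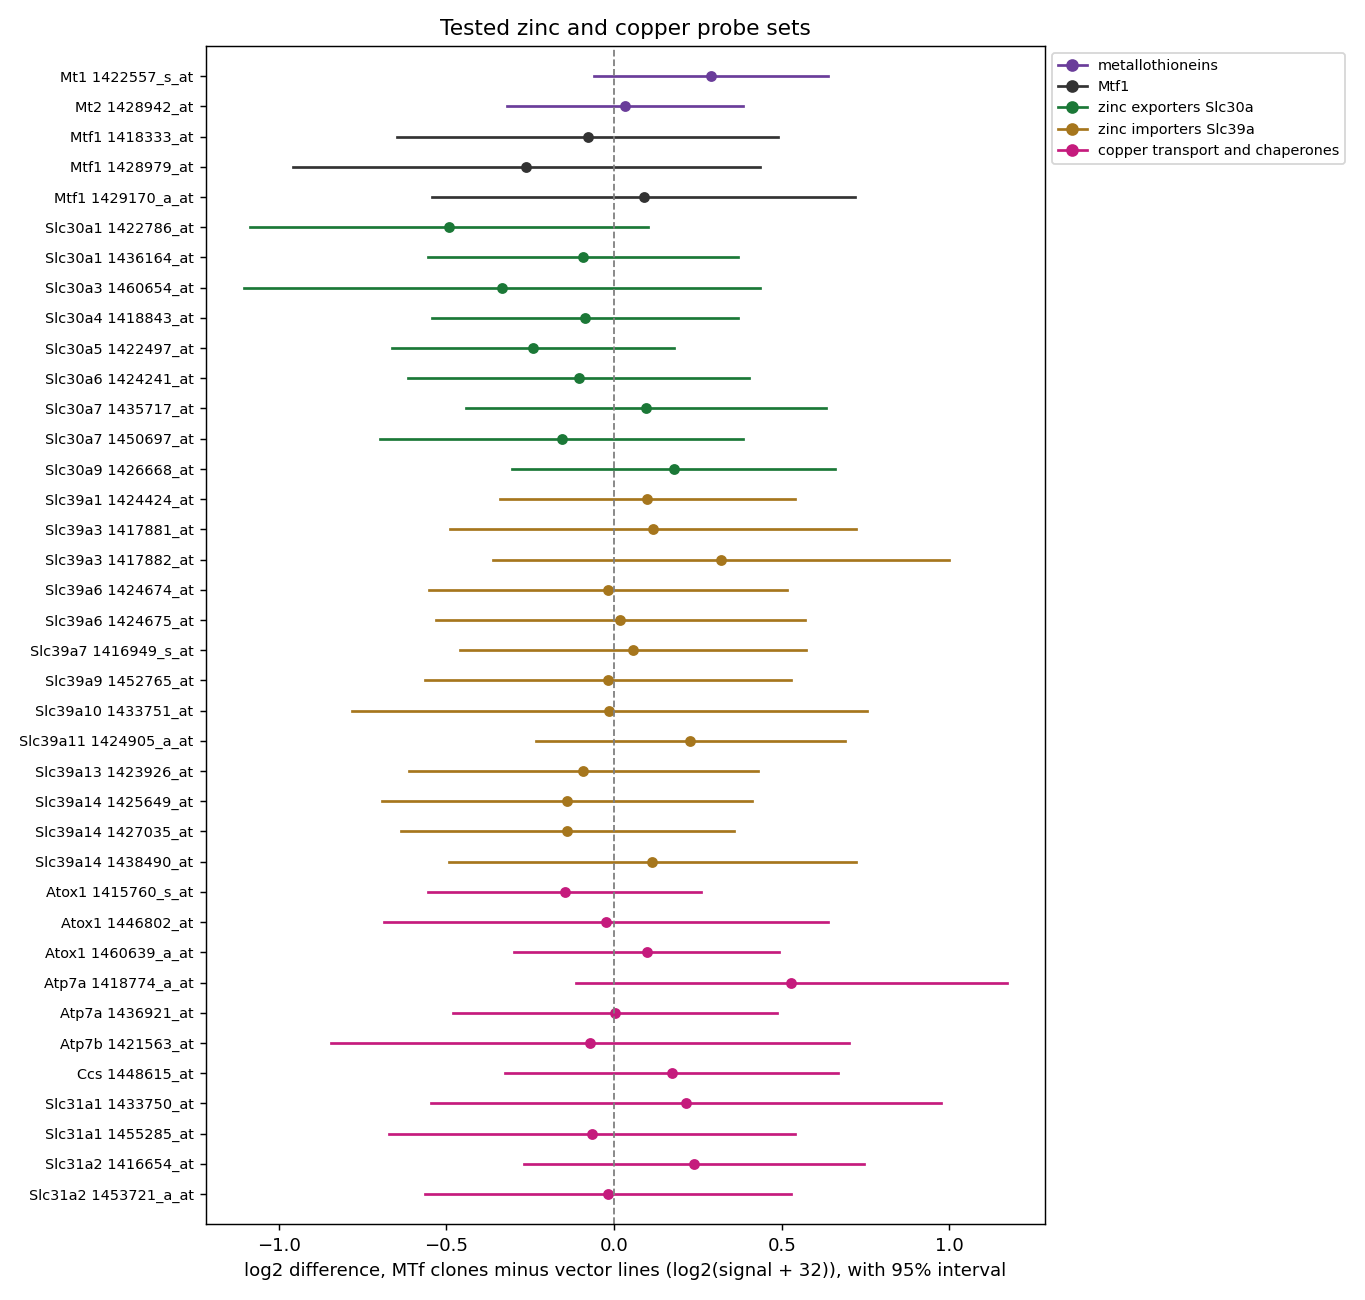
Log2 difference (MTf clones minus vector lines) with its 95% interval from limma for each of the 38 tested probe sets, coloured by family. Every interval crosses 0, and the points lie between -0.49 and 0.53.

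Mt1 gave the brighter signal in the clones, by a small margin that did not pass. Its probe set 1422557_s_at measured 66024 in MTf 4 and 59370 in MTf 6, against 52376 in vector 1 and 50111 in vector 2. Both clones thus lay above both vector lines. The means were 62697 ± 4706 in the clones, against 51243 ± 1601 in the vector lines (SD, n = 2 each), a log2 difference of 0.29 (SE 0.15, 95% interval -0.06 to 0.64) or 1.22-fold, with a limma adjusted p = 1.00. Leaving out 1 array in turn gave 0.21 to 0.37, and quantile normalization gave 0.18. A suffix _s_at marks a probe set that can also bind related transcripts.
A second Mt1 probe set, 1451612_at, went the other way at low signal and was below the filter. It measured 33.7 in MTf 4 and 21.3 in MTf 6, against 131 in vector 1 and 194 in vector 2, so both clones lay below both vector lines. In a fit with no filter its log2 difference was -1.70 with a limma adjusted p = 1.00 (unadjusted p = 0.0101). The probe sets of Mt1 therefore disagree in sign.

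Mt2, the metallothionein next to Mt1 on chromosome 8, did not part the groups. It measured 53491 in MTf 4 and 51273 in MTf 6, against 48403 in vector 1 and 54132 in vector 2. The vector lines spanned both clones, and the log2 difference was 0.03 (95% interval -0.32 to 0.38). This interval leaves out a 1.5-fold difference and includes the 1.22-fold of Mt1. It covers only the scatter among the 4 arrays and not the choice of scaling. Whether signals as bright as those of Mt1 and Mt2 are compressed was not tested. Under quantile normalization the log2 difference of Mt2 was -0.08. Mt3, the brain metallothionein, and Mt4, that of stratified epithelium, were below the filter. Mt3 measured 145 in MTf 4 and 33.7 in MTf 6, against 49.0 in vector 1 and 51.9 in vector 2. Mt4 lay between 52.6 and 92.1 in the 4 lines.

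Mtf1 itself showed no common direction over its 3 tested probe sets. By 1429170_a_at, the brightest, it measured 571 in MTf 4 and 841 in MTf 6, against 699 in vector 1 and 606 in vector 2. By 1428979_at it measured 520 in MTf 4 and 334 in MTf 6, against 551 in vector 1 and 466 in vector 2. MTf 6 was thus the highest line by the first and the lowest by the second. By 1418333_at it measured 603 in MTf 4 and 556 in MTf 6, against 559 in vector 1 and 672 in vector 2. The log2 differences were 0.09, -0.26 and -0.08 in this order, and the groups overlapped in all 3. Each of the 3 takes either sign with 1 array left out. The other 2 Mtf1 probe sets were at most 46.1 in every line.

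**Figure D2:**
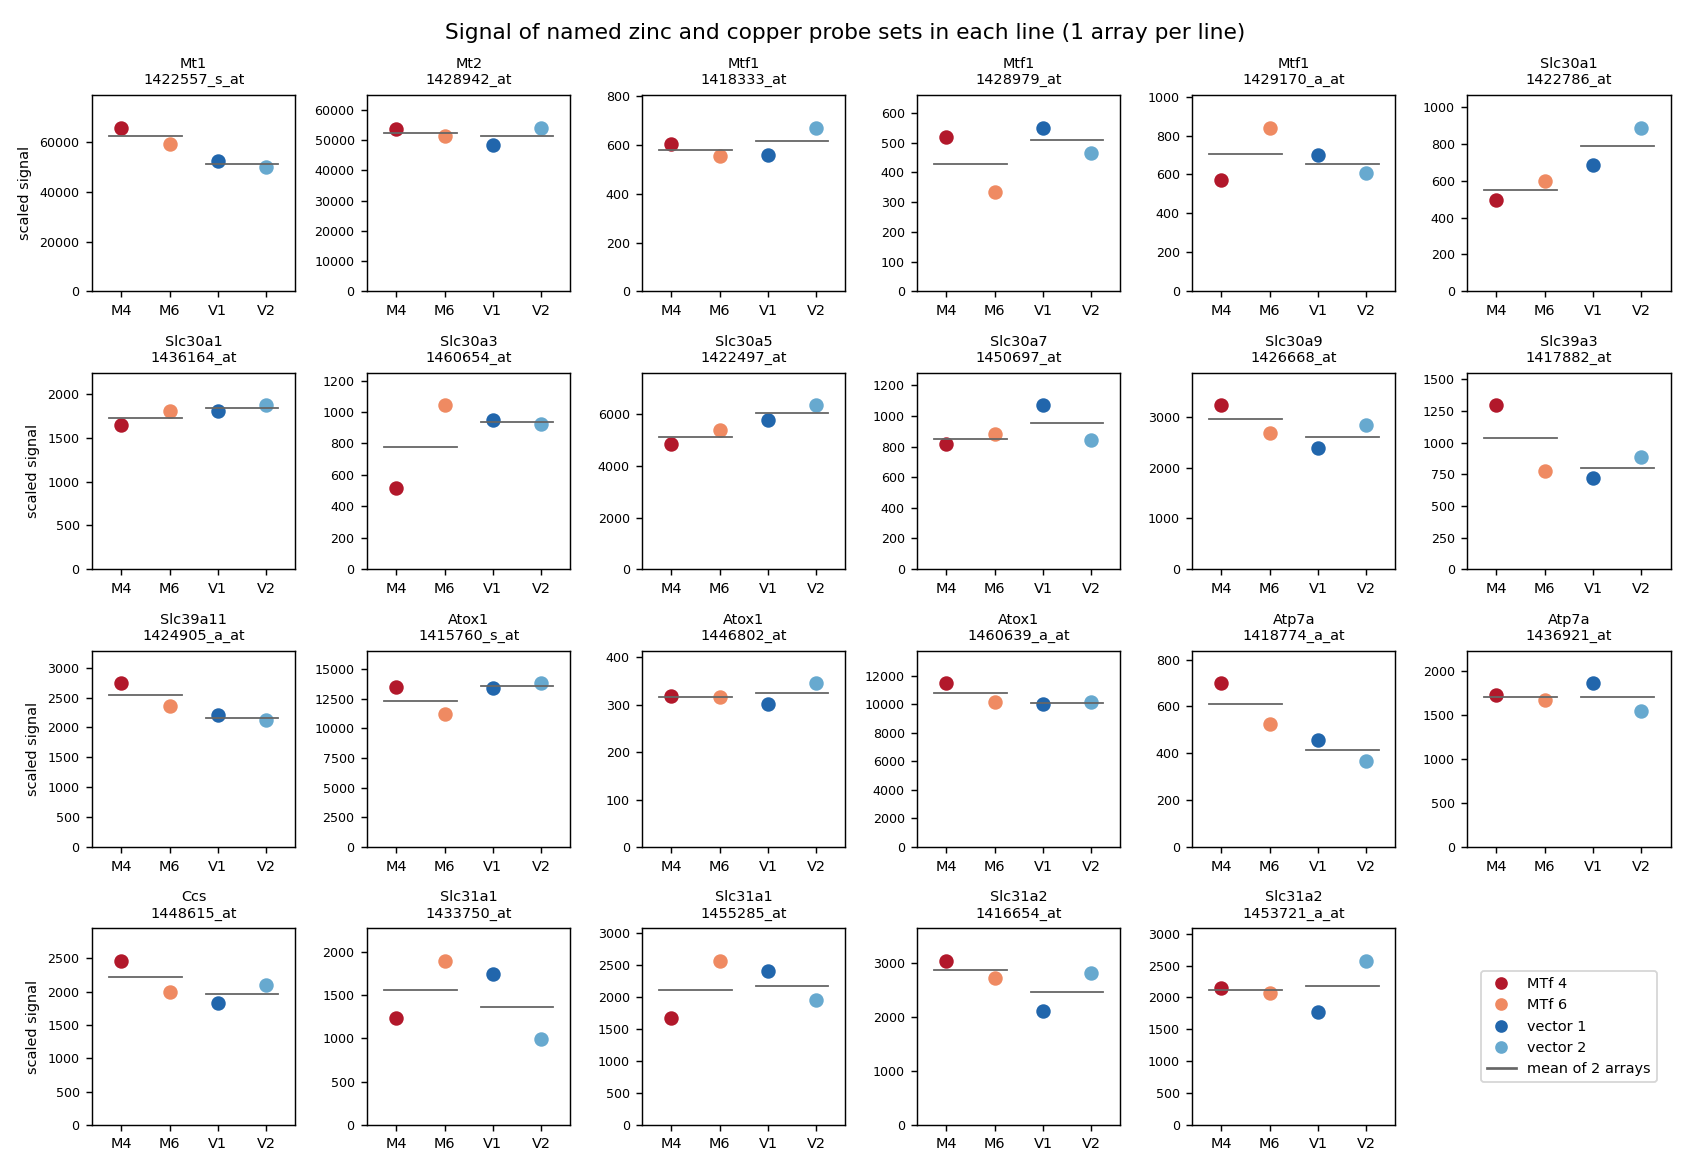
Scaled signal (y axis, from 0) of 23 named probe sets in MTf 4 (M4), MTf 6 (M6), vector 1 (V1) and vector 2 (V2), with the mean of each group as a bar. Mt1 and Atp7a (1418774_a_at) have both clones above both vector lines, and Slc30a1 and Slc30a5 have both below.

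Among the zinc exporters, 7 of 9 tested probe sets had a log2 difference below 0 and 2 above it, with none past the test. Over all tested probe sets, 48.7% were above 0. By gene 6 of 7 were lower, with a median log2 difference of -0.11, against 5447 of all 10682 genes. The intervals of all 9 probe sets held 0, and whether the split departs from the background was not tested. Slc30a1, the exporter of the plasma membrane, measured 498 in MTf 4 and 598 in MTf 6, against 686 in vector 1 and 890 in vector 2 by 1422786_at. Both clones lay below both vector lines, with means of 548 ± 70.6 in the clones, against 788 ± 144 in the vector lines (SD, n = 2 each). The log2 difference was -0.49 (SE 0.25, 95% interval -1.09 to 0.10), with a limma adjusted p = 1.00, and it lay between -0.67 and -0.31 with 1 array left out. The brighter Slc30a1 probe set, 1436164_at, measured 1642 in MTf 4 and 1802 in MTf 6, against 1805 in vector 1 and 1871 in vector 2. It kept the same order of groups, but MTf 6 and vector 1 were nearly level and the log2 difference was -0.09 (95% interval -0.56 to 0.37).

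Slc30a5, which carries zinc into the early secretory pathway together with Slc30a6, was the other tested exporter with both clones below both vector lines. It measured 4865 in MTf 4 and 5397 in MTf 6, against 5794 in vector 1 and 6345 in vector 2, a log2 difference of -0.24 (95% interval -0.66 to 0.18). Its partner Slc30a6 overlapped between the groups, at 1542 in MTf 4 and 1970 in MTf 6, against 1989 in vector 1 and 1772 in vector 2. Slc30a7, of the same compartment, had probe sets of opposite sign. By 1450697_at it measured 816 in MTf 4 and 885 in MTf 6, against 1069 in vector 1 and 845 in vector 2. By 1435717_at it measured 708 in MTf 4 and 651 in MTf 6, against 623 in vector 1 and 644 in vector 2, a narrow gap.

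Slc30a3, a loader of synaptic vesicles, was set apart by 1 clone. It measured 519 in MTf 4 and 1042 in MTf 6, against 951 in vector 1 and 923 in vector 2. MTf 4 alone was low, and MTf 6 lay above both vector lines. The log2 difference of -0.33 (95% interval -1.10 to 0.44) became 0.15 without MTf 4 and -0.82 without MTf 6. Slc30a4, a carrier of intracellular vesicles, was at 10146 in both clones, against 9305 in vector 1 and 12474 in vector 2. Slc30a9 measured 3231 in MTf 4 and 2696 in MTf 6, against 2392 in vector 1 and 2839 in vector 2, with a log2 difference of 0.18. In both genes the groups overlapped.

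Slc30a10, best known as a manganese exporter, was below the filter by both of its probe sets. By 1439934_at it measured 49.1 in MTf 4 and 60.0 in MTf 6, against 167 in vector 1 and 155 in vector 2. The lines of each group were close together and the groups apart, and in the fit with no filter the log2 difference was -1.16 with a limma adjusted p = 1.00 (unadjusted p = 0.0441). By 1438751_at it measured 88.6 in MTf 4 and 53.5 in MTf 6, against 115 in vector 1 and 88.0 in vector 2, where MTf 4 and vector 2 were level. Slc30a8, the carrier of insulin granules, measured 41.2 in MTf 4 and 7.90 in MTf 6, against 60.0 in vector 1 and 113 in vector 2. Slc30a2 lay between 19.6 and 45.4 in the 4 lines.

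Among the zinc importers, 7 of 13 tested probe sets were higher and 6 lower in the clones, none past the test, with a median over 9 genes of -0.01. Slc39a11, a carrier reported at the Golgi and nucleus, measured 2738 in MTf 4 and 2358 in MTf 6, against 2209 in vector 1 and 2123 in vector 2. Both clones lay above both vector lines, with a log2 difference of 0.23 (95% interval -0.23 to 0.69). Slc39a1, an importer of the plasma membrane, measured 2730 in MTf 4 and 2841 in MTf 6, against 2501 in vector 1 and 2700 in vector 2, and also did not overlap, with a log2 difference of 0.10. Slc39a3, another importer of the plasma membrane, measured 1295 in MTf 4 and 777 in MTf 6, against 722 in vector 1 and 883 in vector 2 by 1417882_at. MTf 4 alone stood out, and the log2 difference of 0.32 was -0.04 without that clone. By 1417881_at Slc39a3 was again highest in MTf 4, at 759, and lay between 547 and 701 in the other lines.

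Slc39a14, which also carries iron that is not bound to transferrin, had log2 differences of -0.14, -0.14 and 0.11 by its 3 tested probe sets. By the brightest it measured 1930 in MTf 4 and 2038 in MTf 6, against 2479 in vector 1 and 1931 in vector 2, so only vector 1 was high. Slc39a10 and Slc39a6, closely related importers of the plasma membrane, had differences within 0.02 of 0 by their tested probe sets. Slc39a7, which releases zinc from the endoplasmic reticulum, differed by 0.06, Slc39a9, of the Golgi, by -0.02 and Slc39a13, of the secretory pathway, by -0.09. Their groups overlapped. Slc39a2, Slc39a4, Slc39a5, Slc39a8 and Slc39a12, which are best known from epithelia, pancreas, macrophages and brain, were below the filter by all their probe sets, and none of these 7 probe sets parted the groups.

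Among the copper genes, 6 of 11 tested probe sets were higher and 5 lower in the clones, none past the test. Atp7a, the copper pump of the Golgi and plasma membrane, had the largest log2 difference of all 38 by 1418774_a_at. It measured 699 in MTf 4 and 524 in MTf 6, against 457 in vector 1 and 367 in vector 2, and both clones lay above both vector lines. The means were 611 ± 124 in the clones, against 412 ± 63.9 in the vector lines (SD, n = 2 each), a log2 difference of 0.53 (SE 0.28, 95% interval -0.11 to 1.17), with a limma adjusted p = 1.00. Leaving out 1 array gave 0.33 to 0.73. The brighter Atp7a probe set, 1436921_at, measured 1725 in MTf 4 and 1672 in MTf 6, against 1857 in vector 1 and 1549 in vector 2, a log2 difference of 0.0019. A suffix _a_at marks a probe set that binds alternative transcripts of 1 gene, and the isoforms were not told apart here.

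Atp7b, the related pump best known from liver, was tested by 1 of its 3 probe sets, which overlapped between the groups with a log2 difference of -0.07. A dim probe set, 1450283_at, measured 111 in MTf 4 and 86.4 in MTf 6, against 21.8 in vector 1 and 24.6 in vector 2. In the fit with no filter it had a log2 difference of 1.24 with a limma adjusted p = 1.00 (unadjusted p = 0.0242). The other dim one, 1436481_at, measured 130 in MTf 4 and 59.7 in MTf 6, against 158 in vector 1 and 163 in vector 2. These 2 probe sets of Atp7b thus parted the groups in opposite directions.

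The copper importer Slc31a1 varied between lines of the same group by both of its probe sets. By 1455285_at it measured 1660 in MTf 4 and 2554 in MTf 6, against 2395 in vector 1 and 1943 in vector 2. By 1433750_at it measured 1235 in MTf 4 and 1893 in MTf 6, against 1741 in vector 1 and 989 in vector 2. MTf 6 and vector 1 were the 2 higher lines both times, and the log2 differences between the groups were -0.07 and 0.21. Slc31a2, its relative of late endosomes, measured 3040 in MTf 4 and 2730 in MTf 6, against 2110 in vector 1 and 2815 in vector 2 by 1416654_at. By 1453721_a_at it measured 2153 in MTf 4 and 2073 in MTf 6, against 1780 in vector 1 and 2570 in vector 2. Vector 1 was the lowest line by both, and the groups overlapped.

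The chaperones gave small differences, none past the test. Atox1 measured 13480 in MTf 4 and 11192 in MTf 6, against 13414 in vector 1 and 13800 in vector 2 by 1415760_s_at. By 1460639_a_at it measured 11480 in MTf 4 and 10147 in MTf 6, against 10043 in vector 1 and 10137 in vector 2, where both clones lay above but MTf 6 by little. The log2 differences of these bright probe sets of Atox1 were -0.15 and 0.10. Each came close to 0 with 1 clone left out, at -0.01 for 1415760_s_at without MTf 6 and at 0.0081 for 1460639_a_at without MTf 4. A dimmer tested one, 1446802_at, measured 319 in MTf 4 and 316 in MTf 6, against 302 in vector 1 and 345 in vector 2. Ccs measured 2460 in MTf 4 and 1991 in MTf 6, against 1831 in vector 1 and 2100 in vector 2, a log2 difference of 0.17 (95% interval -0.32 to 0.67). It was 0.02 without MTf 4, 0.32 without MTf 6, 0.07 without vector 1 and 0.27 without vector 2. For genes with more than 1 tested probe set, 3 of 10 (Atp7a, Slc30a1 and Slc39a3) had the same sign by all of them.

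**Figure D3:**
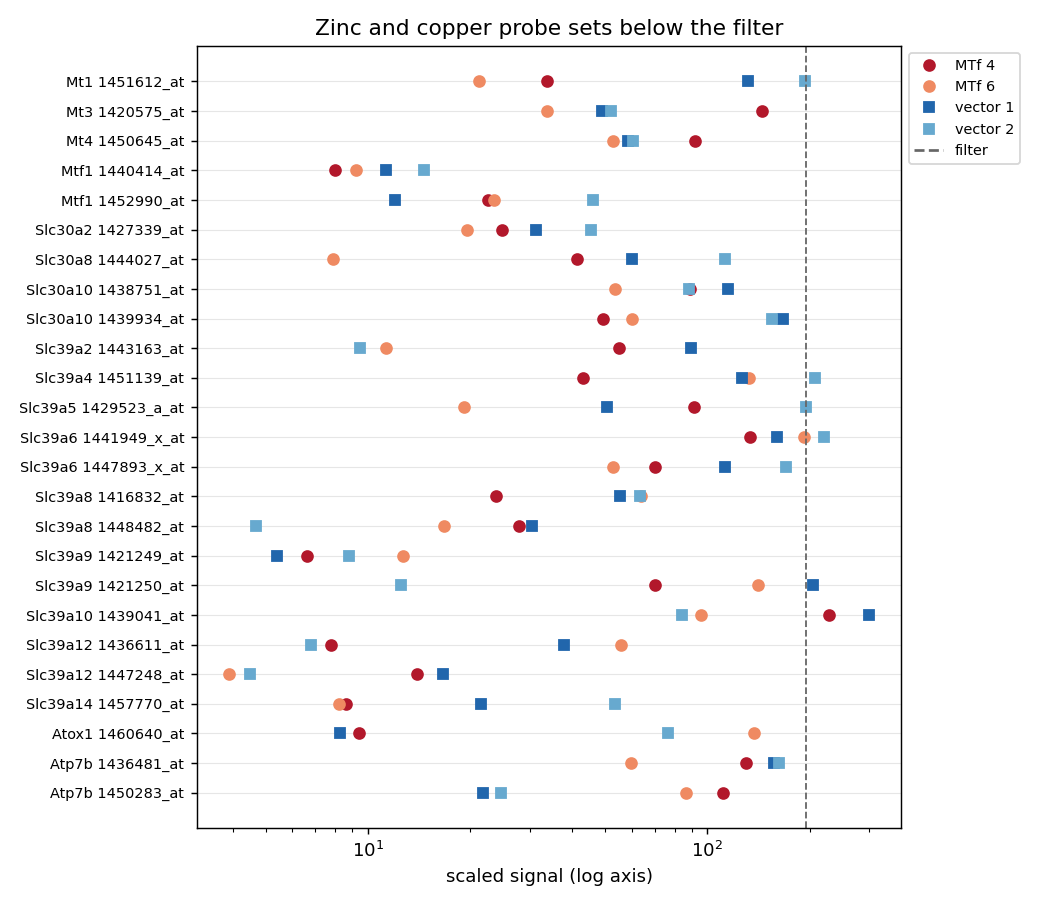
Scaled signal (log axis) of the 25 member probe sets below the filter in each line, with the filter as a dashed line. Slc30a10 (1439934_at) and Mt1 (1451612_at) have both clones below both vector lines, and Atp7b (1450283_at) has both above.

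Below the filter lay 25 probe sets, with signals from 3.90 to 300.0, and for 10 genes all probe sets were there. Both clones were above both vector lines for 1 of 25, against a background of 16.4% of all probe sets below the filter. Both were below for 8 of 25, against 16.7%. The share below is over its background and the share above is under it, and neither departure was tested. In the fit with no filter, 3 of 25 had an unadjusted p under 0.05, where 5.71% of all probe sets below the filter did. None of the 25 passed limma's adjustment. These 3 were the probe sets of Mt1, Slc30a10 and Atp7b given above. Detection calls were not used, so whether such signals are above background was not tested.

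The lines of 1 group differed for some members, each with 1 array and no test. Between MTf 4 and MTf 6, 0 of the 38 tested probe sets were at least 2-fold apart, against 4.77% of all tested probe sets, and 5 were at least 1.5-fold apart (13.2%), against 19.5%. These were Slc30a3 (1.95-fold), Slc39a3 (1.64-fold), both probe sets of Slc31a1 (1.53-fold and 1.52-fold) and 1 of Mtf1 (1.51-fold). Between vector 1 and vector 2, 0 were 2-fold apart, against 3.33%, and 2 were 1.5-fold apart (5.26%), against 14.4%. They were 1433750_at of Slc31a1 (1.74-fold) and 1433751_at of Slc39a10 (1.62-fold). Slc39a10 measured 602 in MTf 4 and 415 in MTf 6, against 653 in vector 1 and 390 in vector 2. Its dim probe set had the same order of lines, at 228 in MTf 4 and 95.9 in MTf 6, against 300.0 in vector 1 and 84.3 in vector 2. The median absolute log2 difference between the clones was 0.27 over the 25 member genes, against 0.29 over all genes, and between the vector lines it was 0.18, against 0.24.

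Some of these members lie on chromosomes whose genes stand apart in 1 line. Slc31a1, Slc31a2 and Mtf1 lie on chromosome 4, whose 641 genes had a median log2 value in MTf 6 of 0.29 above the mean of the other lines, against -0.03 for all genes of that array. Slc31a1 stood at 0.55 and 0.36 in MTf 6 on this measure. In vector 1 it stood at 0.39 and 0.24, where the genes of chromosome 4 stood at -0.11. Slc31a2 stood at 0.06 and -0.05 in MTf 6, and Mtf1 at -0.13, -0.57 and 0.41. Slc39a3 lies on chromosome 10, whose 512 genes stood at -0.33 in vector 2. Slc39a3 stood at 0.15 and -0.03 there. In MTf 4 the genes of chromosome 10 stood at 0.17, and Slc39a3 stood at 0.30 and 0.69. The part of these shifts in the values of single genes was not tested.

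**Figure D4:**
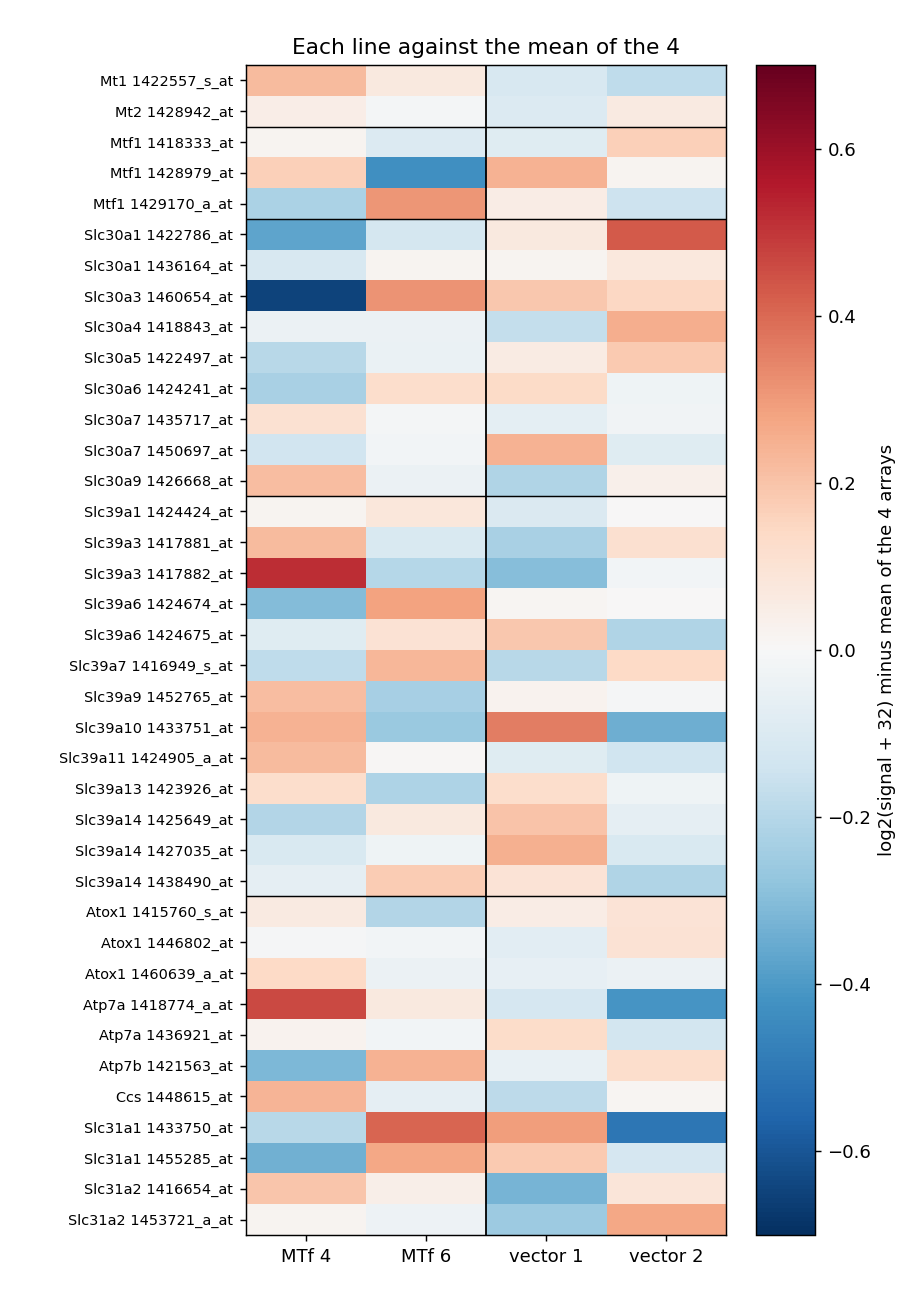
Heat map of log2(signal + 32) in each line minus the mean of the 4 lines, for the 38 tested probe sets, with families parted by lines. Slc30a3 is lowest in MTf 4, and Slc31a1 is high in MTf 6 and vector 1 by both probe sets.

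Other genes of zinc and copper handling gave no call either. Of the copper delivery genes of mitochondria and cytosol 11 of 11 were tested, with a median log2 difference of -0.05, and 0 of 15 probe sets passed the limma adjustment or an unadjusted 0.05. Cox11, of copper insertion into cytochrome oxidase, measured 2253 in MTf 4 and 2429 in MTf 6, against 2943 in vector 1 and 2708 in vector 2. Sco1, of the same assembly, differed by -0.20 and Cmc1 by 0.14. Cmc2 differed by -0.13 by its brightest probe set and by -0.18 and -0.06 by the other tested ones. Of 11 other carriers and reductases 7 were tested, with a median of -0.02, and 0 of 18 probe sets passed either way. Slc11a2, the iron carrier DMT1, measured 442 in MTf 4 and 398 in MTf 6, against 528 in vector 1 and 559 in vector 2 by 1417584_at, a log2 difference of -0.35. It differed by -0.29 and -0.15 by its other tested probe sets, where the groups overlapped. Steap3, a metalloreductase, differed by 0.67 by 1 probe set and by -0.02 and -0.13 by others. Slc25a3, a mitochondrial carrier of phosphate and copper, differed by 0.18 and 0.28, and App, the amyloid precursor, by 0.25 and 0.19.

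Of 14 copper enzymes 8 were tested, with a median of -0.04, and 0 of 19 probe sets passed the adjustment. At an unadjusted 0.05, 1 of 19 was lower, against 0.861% of all tested probe sets, and 1 probe set is no result about the list. It was of Dbh, the enzyme that makes noradrenaline. By that probe set it measured 217 in MTf 4 and 309 in MTf 6, against 535 in vector 1 and 490 in vector 2, a log2 difference of -0.90 (95% interval -1.59 to -0.22) with a limma adjusted p = 1.00 (unadjusted p = 0.0166). A second Dbh probe set had a log2 difference of -1.21, with 284 in MTf 4 and 58.6 in MTf 6, against 327 in vector 1 and 393 in vector 2. Another, below the filter, was at 209 in both clones, against 106 in vector 1 and 53.1 in vector 2, the opposite order. Cp, the copper oxidase ceruloplasmin, named after its values were seen, was low in MTf 6. By its brightest probe set it measured 2789 in MTf 4 and 65.3 in MTf 6, against 749 in vector 1 and 2038 in vector 2. Sod1, the client of Ccs, measured 19450 in MTf 4 and 19058 in MTf 6, against 17856 in vector 1 and 16307 in vector 2 by its brightest probe set, a log2 difference of 0.17. Its other tested probe sets differed by 0.11, -0.11 and 0.26, with overlap. Pam, which amidates peptides, differed by 0.40 through MTf 6 alone, and Loxl4, a lysyl oxidase, by 0.23 and -0.19.

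Of 8 other genes reported to depend on Mtf1 6 were tested, with a median of -0.07, and 0 of 13 probe sets passed the adjustment. At an unadjusted 0.05, 1 of 13 was higher, against 1.04% of all tested probe sets, and 1 probe set is no result about the list. It was of Csrp1, a LIM protein of the cytoskeleton. By 1425810_a_at it measured 4676 in MTf 4 and 3669 in MTf 6, against 3013 in vector 1 and 2821 in vector 2, a log2 difference of 0.50 (95% interval 0.03 to 0.98) with a limma adjusted p = 1.00 (unadjusted p = 0.0407). By 1425811_a_at it measured 6559 in MTf 4 and 4361 in MTf 6, against 4000 in vector 1 and 3921 in vector 2. Both clones were above both vector lines by each probe set of Csrp1. Ndrg1 differed by -0.13 to -0.02 over 5 probe sets, Selenoh by -0.11 and Hamp, hepcidin, by -0.11 at a signal near the filter.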

How the data were processed

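RNA of the 4 lines was measured with 1 array each. The deposited values are intensity values per probe set, and the submitters' processing notes name GCOS 1.3 as the software, without its settings. All arrays had a 2%-trimmed mean of 1000.01 and were used as deposited. The platform annotation gave 1 gene for 34958 of 45101 probe sets, several for 932 and none for 9211. Chromosomes came from RefSeq (GRCm38.p6), by gene identifier.

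Values were converted to log2(signal + 32). A probe set was tested if its mean of these reached the median over non-control probe sets, equal to a signal of 196. Differences were fitted with limma 3.58.1 under R 4.3.3 (lmFit, then eBayes with trend), with Benjamini-Hochberg adjustment over 22519 probe sets, and intervals are 95% intervals of that fit. An exact two-sided permutation test of 2 against 2 arrays cannot go below p = 0.333, and the number of arrays limits the precision. Folds are on the log2(signal + 32) scale and understate changes of dim probe sets.

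On simulated data for MTf minus vector, over 22519 probe sets and 20 simulations, the fit recovered 4.93% of 2-fold, 71.0% of 4-fold and 90.8% of 8-fold changes. Of the simulated calls, 6.34% were false. There many probe sets changed at once, which loosens the adjustment, and noise was independent between probe sets. In the data only 1 probe set was called, so these shares can overstate recovery here. Meltf, with a log2 difference of 2.52, was itself not called (limma adjusted p = 0.0903).

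Values were printed for 9 core genes, the 6 tested probe sets per direction with the smallest p, those at least 2-fold apart between lines of a group, and up to 4 genes per other list. Further members are described by range or count. Some that parted the groups or the lines were named after their values were seen. The members and lists were chosen with earlier results of these data known. Alternatives covered the offset, the filter, the scaling, the trend, the choice of probe set and each array left out.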

Additional observations from a re-analysis of the deposited data

How the results depend on the processing

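No member passed the adjusted test under any alternative run, and over the 23 named probe sets the smallest adjusted p from limma was 0.907. With no filter, 3 members passed an unadjusted 0.05, the member median was -0.066, the call over the whole array ended (0 probe sets), and 7 members differed 2-fold between the clones and 5 between the vector lines. Without the trend the count over the array was also 0. With each array divided by its median, the member median was 0.012. Under quantile normalization 1 member, Slc30a3, was 2-fold apart between the clones. At 1.5-fold, chosen after seeing the data, the counts were 5 and 2. With the filter on the arithmetic mean, also chosen then, no count changed. Leaving out 1 array in turn gave 2 to 25 calls over the array, 0 to 2 members past an unadjusted 0.05 (Slc39a3 and Slc30a3, both without MTf 6), 0 to 2 calls among the other metal genes (2 of Cp, without MTf 4) and member medians from -0.025 to 0.021. Such fits hold 1 array in a group, which is assumed to vary like the others, and the cause of these changes was not tested.

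Of 146 values of the named probe sets under the other alternatives, 140 kept their sign and 6 turned it. A change of filter leaves the log2 difference of a probe set as it was, so there no sign could turn. The count of kept signs is therefore no measure of stability. Quantile normalization also lowered Mt1 1422557_s_at to 0.18 from 0.29. Under it the turned signs were Atox1 1446802_at at 0.0023 and Mt2 at -0.082. With arrays divided by their medians they were Atox1 1446802_at at 0.0029 and Slc31a2 1453721_a_at at 0.012. With the mean of all tested probe sets of a gene they were Mtf1 at -0.084 and Slc31a1 at 0.075. With 1 array left out, 11 of the 23 kept 1 sign and 12 did not. Where both clones lay on 1 side of both vector lines, leaving out 1 array could not turn the sign. This held for Mt1 1422557_s_at, Atp7a 1418774_a_at, both tested probe sets of Slc30a1, Slc30a5, Slc39a11 and Atox1 1460639_a_at. Of the 11, Slc30a1 1436164_at ran from -0.16 to -0.03, Slc30a9 from 0.05 to 0.31, Slc31a2 1416654_at from 0.03 to 0.44, Slc39a11 from 0.12 to 0.33, Ccs from 0.02 to 0.32, Atox1 1415760_s_at from -0.28 to -0.01 and Atox1 1460639_a_at from 0.0081 to 0.19. The 12 ranges were -0.11 to 0.063 for Atox1 1446802_at, -0.13 to 0.13 for Atp7a 1436921_at, -0.048 to 0.11 for Mt2, -0.20 to 0.048 for Mtf1 1418333_at, -0.56 to 0.035 for Mtf1 1428979_at and -0.18 to 0.35 for Mtf1 1429170_a_at. They were -0.82 to 0.15 for Slc30a3, -0.32 to 0.0077 for Slc30a7 1450697_at, -0.18 to 0.61 for Slc31a1 1433750_at, -0.37 to 0.24 for Slc31a1 1455285_at, -0.28 to 0.24 for Slc31a2 1453721_a_at and -0.039 to 0.68 for Slc39a3. No paired analysis was possible because the labels link no clone to a vector line. Detection calls were not used, so for dim probe sets the limit is an unknown background.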
